A study of Homo sapiens with 6 samples.

Results

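The genes described here encode small proteoglycans and other proteins of the extracellular matrix: BGN, DCN, LUM, MGP, EMILIN1, FREM2 and ABI3BP. They are 7 of the 770 genes of a cancer progression panel and were taken by name. They were chosen by their measured counts in these 6 samples, having been proposed with the difference between the study's lines in view, so their own differences are given as a description and no p-value is printed for them. Expression was measured on the NanoString nCounter platform, in which a fluorescent barcode is hybridised to each target RNA and counted without amplification. The tested line was A375-BRAFV600E/NRASQ61K, a human melanoma line carrying BRAF V600E together with the activating mutation NRAS Q61K, and it was set against its isogenic counterpart A375-BRAFV600E/NRASQ61, which carries BRAF V600E with wild-type NRAS. Both are catalogue derivatives of A375 with LUC2, the name of a luciferase reporter, in the catalogue number, and both were cultured untreated in medium with 10% serum for no more than 5 population doublings after thawing. Each line gave 3 samples of total RNA, the labels do not say whether these were separate cultures, and the spread between them may be technical. Each genotype is represented by a single line, so the mutation and any other difference between the lines cannot be told apart.

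Biglycan, decorin and lumican, encoded by BGN, DCN and LUM, are secreted small leucine-rich proteoglycans, whose core proteins carry glycosaminoglycan chains and bind collagen fibrils and growth factors. Matrix Gla protein, encoded by MGP, is a small secreted protein that inhibits calcification and binds bone morphogenetic proteins. EMILIN1 is a glycoprotein at the interface of elastin and microfibrils that restrains TGF-beta precursor processing and is a ligand of integrins. FREM2 belongs to the Fraser complex, which anchors epithelial basement membranes to the connective tissue beneath, and ABI3BP is a matrix glycoprotein that binds collagen and glycosaminoglycans. In skin most small proteoglycans are made by fibroblasts.

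The RefSeq promoter set used here (build GRCh38.p14) held entries for 3 of the 7 genes, and these are shown because they were the ones available. Of them, BGN and FREM2 differed widely between the lines while ABI3BP did not. Each line gives the 250 bases before the annotated start, 5′ to 3′ on the gene's strand, at chrX:153494730-153494979 (+) for BGN, chr13:38686827-38687076 (+) for FREM2 and chr3:100993422-100993671 (-) for ABI3BP. Capitals mark matches, on either strand, to the GC box GGGCGG, the CCAAT box CCAAT or the TATA box TATAAA. No matches overlapped another motif.
BGN: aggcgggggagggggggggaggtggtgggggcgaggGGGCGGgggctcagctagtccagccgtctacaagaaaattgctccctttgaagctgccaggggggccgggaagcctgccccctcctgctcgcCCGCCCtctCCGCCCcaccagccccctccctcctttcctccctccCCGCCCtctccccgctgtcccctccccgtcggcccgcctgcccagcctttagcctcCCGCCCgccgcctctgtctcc
FREM2: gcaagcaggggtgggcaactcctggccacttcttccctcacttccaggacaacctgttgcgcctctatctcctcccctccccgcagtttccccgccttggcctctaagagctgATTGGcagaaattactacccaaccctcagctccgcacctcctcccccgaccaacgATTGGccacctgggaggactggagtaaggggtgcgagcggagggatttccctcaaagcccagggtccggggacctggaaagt
ABI3BP: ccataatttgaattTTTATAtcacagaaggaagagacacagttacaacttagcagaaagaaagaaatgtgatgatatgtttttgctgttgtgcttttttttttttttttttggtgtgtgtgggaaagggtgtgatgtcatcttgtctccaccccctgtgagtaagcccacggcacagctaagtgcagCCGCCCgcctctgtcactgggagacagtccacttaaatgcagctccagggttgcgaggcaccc

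The BGN window held 5 GC boxes, 16 CpG dinucleotides and 74.0% G and C. The FREM2 window held 2 CCAAT boxes, both on the opposite strand, 9 CpG dinucleotides and 61.2% G and C. The ABI3BP window held 1 GC box and, far upstream of the start, 1 TATA box, both on the opposite strand. It held 4 CpG dinucleotides and 45.2% G and C. Among the 35116 promoters of the same length in the table, 42.6% held a GC box, 32.0% a CCAAT box and 10.7% a TATA box, and the median promoter held 11 CpG dinucleotides. The AP-1 motif TGANTCA, present in 6.57% of all promoters, and the ETS motif CCGGAAGT, present in 3.42%, were searched on both strands and matched none of the 3 windows. These matches describe the sequence and are not binding sites.

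Values are normalized counts, as deposited. Total counts over the 770 genes before scaling ranged from 1158480 to 1189624 in Q61K samples and from 1224093 to 1264588 in wild-type samples. The detection floor, the mean plus 2 SD of the 8 negative control probes, was 129.7. It was set largely by 2 bright probes, which read between 75.5 and 143.8, while the other 6 read between 1 and 24.8 and alone gave a floor of 20.0. Of 740 endogenous genes 454 had a mean over the 6 samples above 129.7 and were tested. The Q61K sample numbered 1 was the highest of the 3 Q61K samples in 83 of the 113 tested genes with a mean up to 300, in 83 of 137 with a mean of 300 to 1000 and in 126 of 204 above that. Its median deviation from the Q61K mean was 0.13 (log2) in the lowest of these ranges, 0.045 in the middle one and 0.020 in the highest. These ranges are of the mean over all 6 samples, by which every member but EMILIN1 fell in the lowest. Results for DCN and ABI3BP, whose mean in the Q61K line itself was under 300, are given with and without Q61K sample 1. Without it the log2 difference went from 7.72 to 7.73 for BGN, 2.30 to 2.32 for LUM and 2.92 to 2.90 for MGP. It went from 3.78 to 3.79 for EMILIN1 and 3.21 to 3.23 for FREM2.

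BGN, LUM, MGP, EMILIN1 and FREM2 stood above 400 counts in every Q61K sample and below the floor in every wild-type sample. In bulk RNA, fewer expressing cells and less RNA per cell cannot be told apart. ABI3BP was slightly higher in Q61K samples on the deposited scale, and DCN overlapped between the lines. DCN was the only member above the floor in both lines. The other 6 passed the floor through the Q61K line alone, so a gene of this kind had to differ to be among the tested genes. In 6 of the 7 members the Q61K samples all lay above the wild-type samples, a pattern seen in 63.0% of all tested genes. The same 6 were past the threshold of an adjusted p under 0.05 in the limma fit over all tested genes, where 62.1% of genes were called higher and 20.9% lower. Since the members were proposed with this contrast in view, these shares are not read as a result about them.

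**Figure D1:**
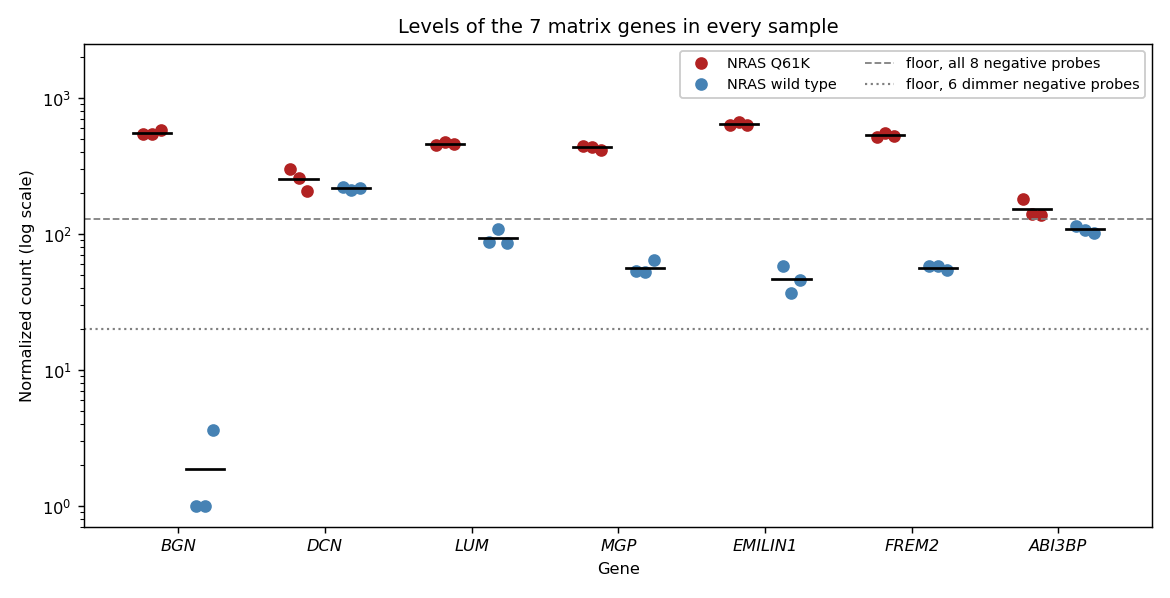
Normalized count (log scale) of the 7 genes in the 3 NRAS Q61K samples (red, left) and the 3 NRAS wild-type samples (blue, right). Bars are means, the dashed line is the floor of 129.7 and the dotted line the floor of 20.0 from the 6 dimmer negative probes. BGN, LUM, MGP, EMILIN1 and FREM2 lie above the dashed line in Q61K samples and below it in wild-type samples, and DCN overlaps.

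Among the small leucine-rich proteoglycans, BGN had 546, 541 and 581 normalized counts in Q61K samples, against 1, 1 and 3.59 in wild-type samples. The wild-type values were at or next to the lowest value the table allows, so no BGN signal was measured above background there. The means were 556 ± 21.8 in Q61K samples and 1.86 ± 1.5 in wild-type samples (SD, n = 3 each), at least a 4.28-fold difference.

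LUM had 452, 477 and 459.7 counts in Q61K samples, against 87.1, 108 and 86.25 in wild-type samples. The groups did not overlap, and the wild-type values lay within the range of the 2 bright negative probes. The means were 463 ± 13.1 in Q61K samples and 93.8 ± 12.4 in wild-type samples (SD, n = 3 each), at least a 3.57-fold difference.

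DCN had 301, 257 and 208 counts in Q61K samples, against 223, 209 and 217 in wild-type samples. Sample 1 of the Q61K line was the highest and sample 3 was below every wild-type sample, so the groups overlapped. The means were 255 ± 46.5 in Q61K samples and 216 ± 6.68 in wild-type samples (SD, n = 3 each), and the log2 difference was 0.22 with a standard error of 0.13. Without Q61K sample 1 the log2 difference was 0.10, and without Q61K sample 3 it was 0.36. Within the Q61K line the coefficient of variation was 18.2% for DCN, against a median of 3.64% over the tested genes. Those span all levels, with sample medians of 862 to 920 counts in the Q61K line, above DCN.

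MGP had 442, 438 and 418 counts in Q61K samples, against 53.0, 52.2 and 64.7 in wild-type samples. The groups lay far apart, and each was tight relative to the gap. The means were 433 ± 12.9 in Q61K samples and 56.6 ± 7.0 in wild-type samples (SD, n = 3 each), at least a 3.34-fold difference. BMP4, whose product matrix Gla protein binds, was also higher in Q61K samples, at 969 ± 63.5 against 506 ± 15.7 counts (n = 3 each, limma adjusted p = 8.75e-06), and was named after its values were seen.

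EMILIN1 had 639, 667 and 639 counts in Q61K samples, against 58.35, 36.9 and 45.8 in wild-type samples. The groups were far apart, and the wild-type values were all below the floor. The means were 648 ± 16.4 in Q61K samples and 47.0 ± 10.8 in wild-type samples (SD, n = 3 each), at least a 5.00-fold difference. ITGA9, encoding a subunit of an integrin that binds EMILIN1 and named after its values were seen, had 193, 163 and 167 counts in Q61K samples and was at the table's minimum of 1 in all wild-type samples. Its mean over the 6 samples was below the floor and it was not tested.

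FREM2 had 515, 553 and 529 counts in Q61K samples, against 58.35, 57.6 and 53.9 in wild-type samples. All wild-type samples lay below all Q61K samples with a small spread on both sides. The means were 532 ± 18.9 in Q61K samples and 56.6 ± 2.38 in wild-type samples (SD, n = 3 each), at least a 4.11-fold difference.

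ABI3BP had 179.8, 139.7 and 137 counts in Q61K samples, against 115, 107 and 102 in wild-type samples. The groups did not overlap, but Q61K sample 1 stood above the rest of its line and the wild-type samples were below the floor. The means were 152 ± 23.9 in Q61K samples and 108 ± 6.29 in wild-type samples (SD, n = 3 each). On the deposited scale and with all samples kept, this was at least a 1.17-fold difference. The mean over all samples was 130.2, just past the floor. Q61K samples 2 and 3 and all wild-type samples lay within the range of the 2 bright negative probes, 75.5 to 143.8. Without Q61K sample 1 the Q61K mean was 138 and the log2 difference fell to 0.35, against 0.48 with it.

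The bounds above rest on the floor of 129.7. Measured against the floor of 20.0 from the 6 dimmer negative probes, an alternative chosen after seeing the data, LUM, MGP, EMILIN1 and FREM2 were above background in the wild-type line too. Their ratios of means, Q61K over wild type, were then 4.93 for LUM, 7.65 for MGP, 13.8 for EMILIN1 and 9.40 for FREM2. BGN remained below background in wild-type samples and its bound became at least 27.8-fold. The ratio was 1.41 for ABI3BP and 1.18 for DCN.

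The deposited scale raised Q61K samples relative to wild-type samples, because 1 factor per sample (1.11 to 1.16 in Q61K samples, 0.898 to 0.903 in wild-type samples) equalised the housekeeping genes. Across the 454 tested genes the log2 difference had a median of 0.32 on this scale, against -0.0079 with the factors undone and -0.13 after equalising sample medians. Before scaling, BGN had 470 to 518 counts in Q61K samples and 1 to 4.0 in wild-type samples. EMILIN1 had 550 to 601 against 40.8 to 65.0, FREM2 444 to 498 against 60.0 to 65.0, LUM 389 to 430 against 96.0 to 119.8 and MGP 373 to 395 against 57.8 to 72.0. These 5 genes did not overlap between the lines under any of 5 scalings. ABI3BP had 122 to 155 counts before scaling in Q61K samples and 114 to 128 in wild-type samples, and its groups overlapped under every scaling but the deposited one. DCN had 185 to 259 counts before scaling in Q61K samples and 232 to 248 in wild-type samples.

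With the panel's median subtracted, the log2 difference was 0.16 for ABI3BP and -0.10 for DCN as deposited, both close to the panel as a whole. The DCN difference turned negative under the other 4 scalings, with -0.10 when the factors were undone, -0.092 after scaling on the positive controls, -0.23 after equalising medians and -0.21 after quantile normalization. In the last pair of settings all DCN values of the Q61K line were below those of the wild-type line, as were 46.9% of tested genes after equalising medians and 44.3% after quantile normalization. The share of tested genes with all Q61K samples above all wild-type samples was 39.9% with the factors undone, 36.6% after scaling on the positive controls, 34.4% after equalising medians and 36.1% after quantile normalization, and 5 of the 7 members were of this kind in each.

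**Figure D2:**
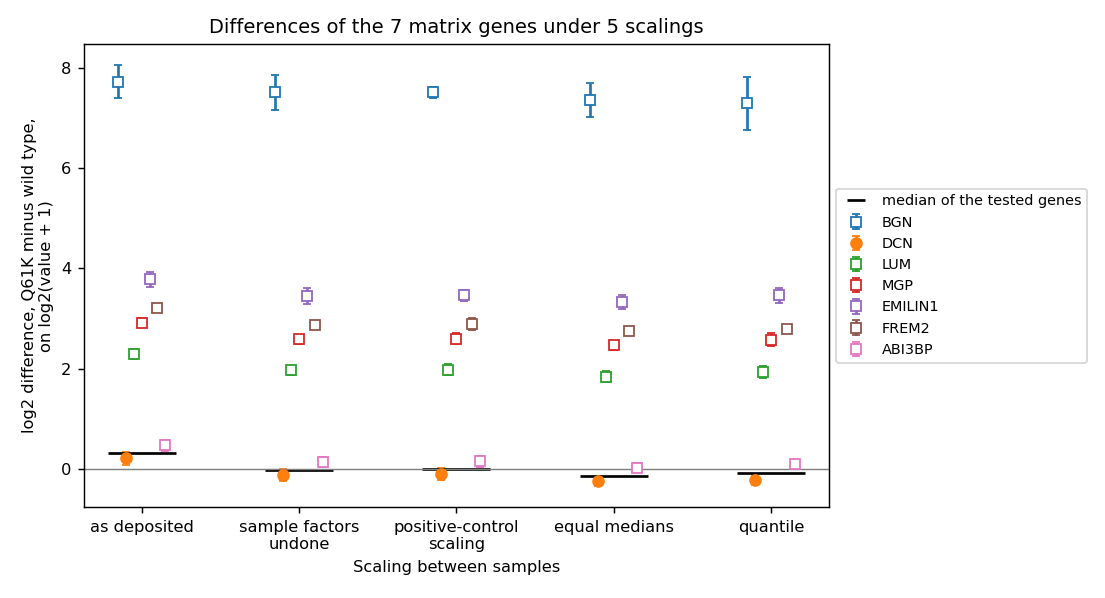
Difference between the lines (log2(value + 1), Q61K minus wild type, with its standard error) of the 7 genes under 5 scalings between samples, with the median of the 454 tested genes as a black bar. After scaling on the positive controls the fit gave all 7 genes the same standard error, 0.11, so those error bars are not each gene's own spread. Open squares have wild-type means below the floor, so their size depends on the background. BGN, LUM, MGP, EMILIN1 and FREM2 stay far above the median in all 5, while ABI3BP and DCN stay beside it.

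**Figure D3:**
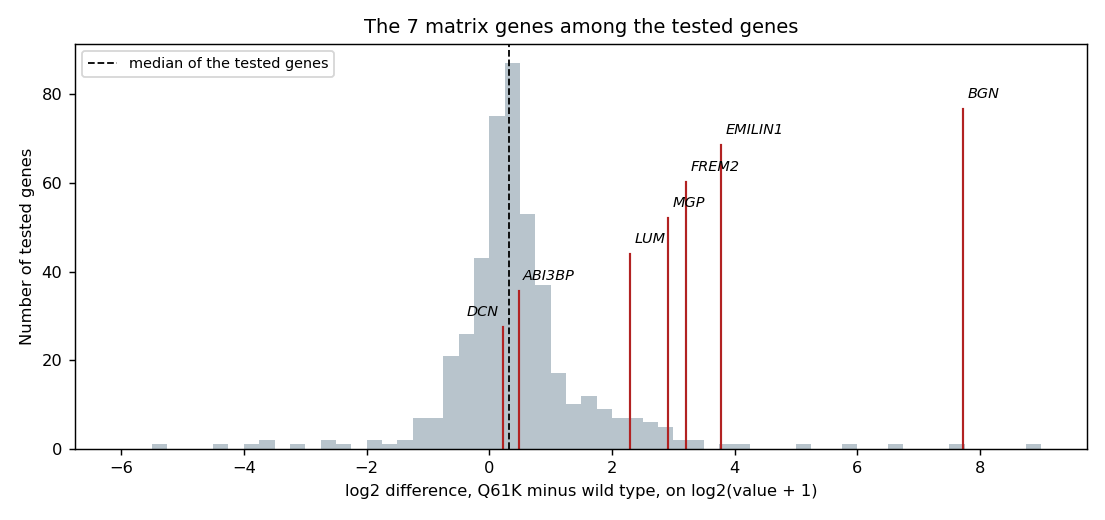
Number of tested genes by log2 difference (Q61K minus wild type, on log2(value + 1)), with the 7 genes marked by red lines, whose heights carry no value, and the median of 0.32 dashed. DCN and ABI3BP fall in the centre of the distribution and the other 5, whose wild-type levels are below the floor, in its upper tail.

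The 5 strongly differing members also varied little within the Q61K line, with coefficients of variation of 3.93% for BGN, 2.84% for LUM, 2.98% for MGP, 2.53% for EMILIN1 and 3.55% for FREM2. The ABI3BP value was 15.7%. In the wild-type line the coefficients were 3.09% for DCN, and, among the members below the floor there, 4.20% for FREM2, 5.81% for ABI3BP, 12.4% for MGP, 13.2% for LUM, 23.0% for EMILIN1 and 80.3% for BGN.

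The genes whose pattern over the 6 samples was nearest to each member were found as the smallest root mean square difference between centred log2(value + 1) profiles, among 447 other tested genes. With 6 samples in 2 lines, this measure mostly compares the size of the line difference. MGP was nearest to the integrin subunit gene ITGA7 (0.047) and the receptor gene PDGFRB (0.063). FREM2 was nearest to FN1, encoding fibronectin (0.128), and the homeobox gene MEOX2 (0.140). EMILIN1 was nearest to FN1 (0.218) and PCOLCE, encoding an enhancer of procollagen processing (0.232). LUM was nearest to CHRDL1, encoding a bone morphogenetic protein antagonist (0.108), and the cytokine receptor gene LIFR (0.125). ABI3BP was nearest to PLAU, encoding urokinase (0.049), and ANG, encoding angiogenin (0.066), and DCN to ADAMTS8 (0.082) and HOXB13 (0.084). BGN was nearest to ID4 (0.567) and APOE (0.960), distances that depend on wild-type BGN values not above background: with log2(value + 16) the BGN difference was 5.00, against 7.72 with log2(value + 1). Among the members, DCN and ABI3BP were closest to each other (0.157), followed by MGP and FREM2 (0.201).

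Other genes of the same families did not share one pattern. Of 6 further small leucine-rich proteoglycan genes on the panel, CHAD, encoding chondroadherin, was the only one tested and was not called, at 213 ± 11.2 counts in Q61K samples and 183 ± 22.0 in wild-type samples (SD, n = 3 each; limma adjusted p = 0.0622). FMOD, PRELP, OGN and ASPN, encoding fibromodulin, prolargin, mimecan and asporin, were at 10.7 counts or less in every sample. ECM2 averaged 4.65 counts in Q61K samples and 36.8 in wild-type samples, both below the floor. With the floor of 20.0, where 56.9% of tested genes were called higher and 22.4% lower, ECM2 was called lower (limma adjusted p = 0.00396). Its mean over all samples was 20.7, just past that floor. It passed through the wild-type line alone, so it had to differ to be tested.

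Of 10 further elastic fibre and microfibril genes on the panel 4 were tested, and 2 were called higher, beside 62.1% of all tested genes. FBLN1, encoding the elastic-fibre-associated glycoprotein fibulin-1, had 297, 295 and 287 counts in Q61K samples, against 21.5, 32.4 and 29.7 in wild-type samples, at least a 2.26-fold difference (limma adjusted p = 1.92e-06). LOXL2, a lysyl oxidase that cross-links collagen and elastin, had 202, 219 and 225 counts against 110.4, 122 and 122, at least a 1.66-fold difference (limma adjusted p = 1.88e-05). Both kept their direction and call under all 5 scalings, but both passed the floor through the Q61K line alone, and with the floor at the mean plus 3 SD of the negative probes neither was tested, so that these calls were lost. FBN2, encoding the microfibril protein fibrillin-2, and LTBP4, encoding a TGF-beta binding protein of microfibrils, were not called, at 211 ± 40.0 against 184 ± 19.7 and 535 ± 49.8 against 491 ± 11.3 counts (n = 3 each). FBN1, encoding fibrillin-1, averaged 102 in Q61K samples and 152 in wild-type samples and was not tested at the main floor. With the floor of 20.0 it was called lower (limma adjusted p = 0.0211). FBLN5 averaged 31.5 counts in Q61K samples and 1.86 in wild-type samples, and MMRN2 15.5 and 13.4. EMILIN3, a paralogue of EMILIN1, and MFAP4 and LOX were at the table's minimum in all samples.

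FRAS1, which encodes the founding protein of the Fraser complex, had 40.45, 46.45 and 47.6 counts in Q61K samples, against 125, 86.5 and 110.5 in wild-type samples. All values were below the floor of 129.7, and with the floor of 20.0 FRAS1 was called lower by 1.23 (log2, limma adjusted p = 0.000561). FREM1 had 42.8, 73.1 and 29.7 counts in Q61K samples, against 1, 1 and 10.8 in wild-type samples, and was called higher at that floor (limma adjusted p = 0.00716). FREM1 passed the floor of 20.0 through the Q61K line alone, so it had to differ to be tested there. NID2, encoding the basement membrane linker nidogen-2, averaged 26.5 counts in Q61K samples and 67.4 in wild-type samples and was called lower (limma adjusted p = 0.000914). VWA2 and ITGA8 were at the table's minimum throughout. No gene of this list other than FREM2 was tested at the main floor.

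Of 9 other proteoglycan and proteoglycan-linked genes 7 were tested, and 5 were called higher and 2 lower, beside 62.1% and 20.9% of all tested genes. CSPG4, a chondroitin sulphate proteoglycan of the melanoma cell surface, had 4423, 4238 and 4403 counts in Q61K samples, against 1312, 1321 and 1276 in wild-type samples (3.34-fold, limma adjusted p = 7.06e-08). HAPLN1, a link protein that holds proteoglycans to hyaluronan, had 1743, 1779 and 1649 counts against 729, 741 and 718 (2.36-fold, limma adjusted p = 5.25e-07). The basement membrane heparan sulphate proteoglycan genes HSPG2 (perlecan) and AGRN (agrin) were 1.87-fold and 1.63-fold higher, and these 4 genes kept their direction and call under all 5 scalings. The syndecan gene SDC4 was 1.23-fold higher as deposited and turned negative under the other 4 scalings. SRGN, encoding the intracellular proteoglycan serglycin, was at least 1.56-fold lower in Q61K samples, at 90.5 ± 8.40 against 203 ± 7.66 counts (n = 3 each, limma adjusted p = 1.17e-05). SRGN passed the floor through the wild-type line alone, so it had to differ to be tested. With the floor at the mean plus 3 SD of the negative probes SRGN was not tested and this call was lost. The hyaluronan receptor gene CD44 was 1.06-fold lower as deposited (limma adjusted p = 0.0388), a call lost when any 1 of the 6 samples was left out. Before scaling its gap was wider, with 7763 to 8123 counts in Q61K samples and 10417 to 10809 in wild-type samples. VCAN, encoding versican, averaged 57.4 counts in Q61K samples and 27.0 in wild-type samples, and SPOCK3 1.13 and 6.24. With the floor of 20.0, which its mean passed in both lines, VCAN was called higher (limma adjusted p = 0.00434). At that floor 8 genes of this list were tested, and 6 were called higher and 2 lower, beside 56.9% and 22.4% of all tested genes.

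**Figure D4:**
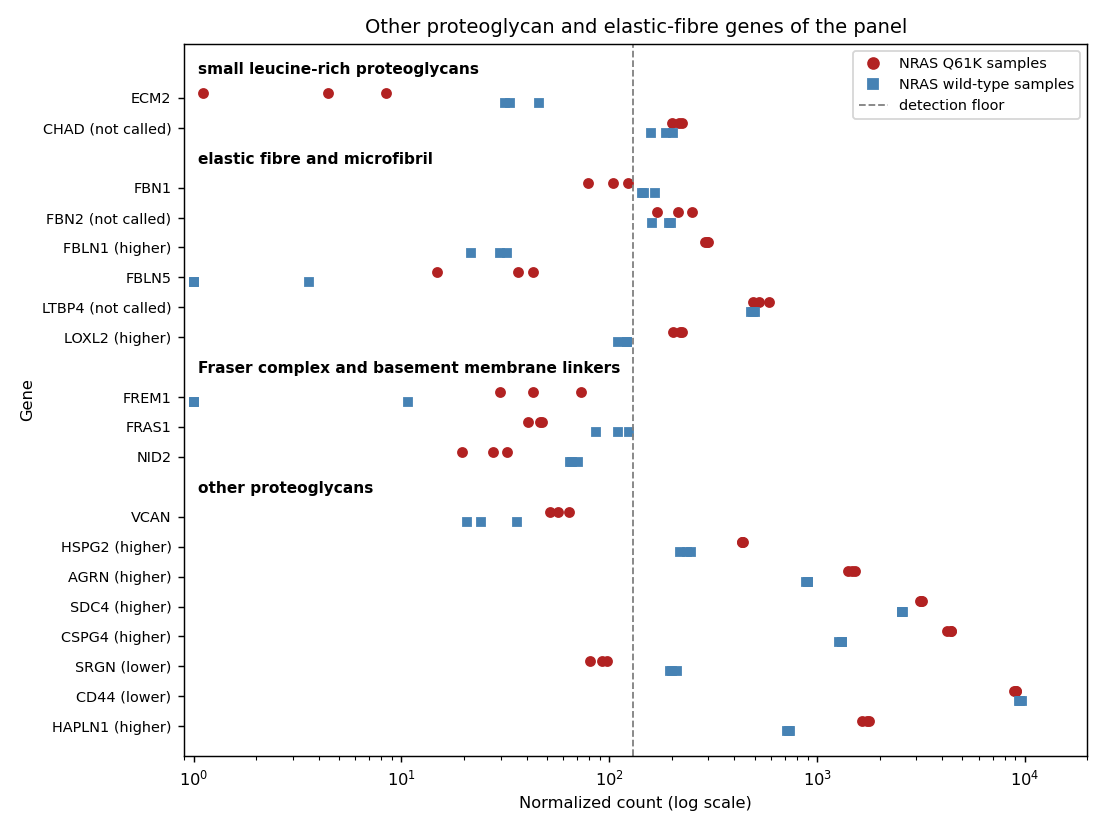
Normalized count (log scale) of non-member proteoglycan, elastic-fibre and Fraser complex genes whose mean passed 20.0 in at least 1 line, with Q61K samples in red above wild-type samples in blue, the floor of 129.7 dashed, and the limma call beside each tested gene. FBLN1, LOXL2, CSPG4 and HAPLN1 lie to the right in Q61K samples, while FRAS1, NID2 and SRGN lie to the left.

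A list of 14 growth factor and receptor genes on the panel, most of them known partners of decorin, biglycan, lumican, matrix Gla protein or EMILIN1, had 13 tested members, of which 9 were called higher and 4 lower. The shares over all tested genes were 62.1% higher and 20.9% lower. The list's log2 differences had a median of 0.60, beside 0.32 over all tested genes. By fitted log2 difference the widest called were ITGA1, encoding a collagen-binding integrin subunit, and KDR, encoding a vascular endothelial growth factor receptor that decorin can bind and also held in the endothelial list. KDR had wild-type values below the floor, so its size depends on the pseudocount (2.14 with log2(value + 16), against 2.50). With both lines above the floor the integrin subunit gene ITGB3, picked once the values were known, averaged 6244 ± 294 counts in Q61K samples and 1135 ± 22.2 in wild-type samples (SD, n = 3 each), a 5.50-fold difference. ITGA1 was 33.2-fold higher. KDR had 241, 251 and 192 counts in Q61K samples against 38.6, 43.2 and 35.9 in wild-type samples, at least 1.76-fold higher (limma adjusted p = 3.07e-06). KDR passed the floor through the Q61K line alone, so it had to differ to be tested. With the floor at the mean plus 3 SD of the negative probes KDR was not tested and this call was lost. The lower members, named after their values were seen, were EGFR and MET, receptor kinases that decorin binds, the collagen and proteoglycan receptor subunit gene ITGA2, and TGFB2. EGFR averaged 617 ± 6.29 counts in Q61K samples and 767 ± 11.7 in wild-type samples (n = 3 each), 1.24-fold lower, and MET was 1.65-fold lower. TGFB1, whose product is bound by decorin and biglycan, was 1.90-fold higher and was also named after its values were seen. With the sample factors undone 8 of the list were higher and 5 lower, and after equalising medians 7 and 5.

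Of 10 genes of enzymes and inhibitors that act on matrix proteoglycans 8 were tested, and 6 were called higher and 2 lower, or 3 and 3 after equalising medians. As deposited, 62.1% of all tested genes were called higher and 20.9% lower. The 2 lower genes had the widest called differences. ADAMTS1, a metalloprotease that cleaves versican and aggrecan, had 208, 203 and 220.05 counts in Q61K samples, against 815, 836 and 814 in wild-type samples, 3.91-fold lower (limma adjusted p = 8.13e-08). MMP3, a metalloprotease that can degrade decorin, averaged 495 ± 65.6 counts in Q61K samples and 1088 ± 14.1 in wild-type samples (n = 3 each), 2.20-fold lower (limma adjusted p = 4.01e-05).

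Since small proteoglycans are made in quantity by fibroblasts, markers of other cell types were read beside them. The panel held 11 markers of fibroblasts and mural cells. Of these, COL1A2 was at the table's minimum in every sample, and COL1A1, COL3A1, THY1, PDPN and POSTN averaged below the floor in both lines, with COL1A1 at 19.0 counts in Q61K samples and 6.55 in wild-type samples. The other 5, which include PDGFRB, CSPG4 and VIM, were tested and called higher, or 3 higher and 1 lower after equalising medians. As deposited, 62.1% of all tested genes were called higher. PDGFRB averaged 686 counts in Q61K samples and 91.4, below the floor, in wild-type samples. Apart from VIM, which melanoma cells also express strongly, the fibroblast and mural markers summed to 5539 to 5763 in Q61K samples and 1669 to 1733 in wild-type samples. The 4 panel genes of the melanocyte and melanoma list were all called higher, with a summed level of 8544 to 8984 in Q61K samples and 3422 to 3459 in wild-type samples. CSPG4, in both lists, makes up much of each sum. Of 9 epithelial markers 3 were at the minimum in every sample (EPCAM, CDH1 and OCLN), 2 were tested and both were called higher, or 1 under each of the other 4 scalings, with a summed level of 2099 to 2177 in Q61K samples and 712 to 811 in wild-type samples. The leukocyte marker PTPRC was at the minimum in every sample, none of the 4 leukocyte genes was tested, and their sum was 125 to 165 in Q61K samples and 122 to 164 in wild-type samples. Of 9 endothelial genes 5 were tested, with 3 called higher and 1 lower (2 higher under each of the other 4 scalings, with 1 lower, or 2 after quantile normalization) and sums of 1445 to 1686 in Q61K samples and 888 to 973 in wild-type samples. Of 3 cartilage and bone genes IBSP was at the minimum in every sample, and 1 of 2 tested was higher and 1 lower, with sums of 1630.5 to 1714 in Q61K samples and 2357 to 2462 in wild-type samples. The part of the marker differences in the members' values was not tested.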

How the data were processed

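Deposited values are a normalized count signal from the NanoString nCounter PanCancer Progression panel, per the labels. Software and background settings: not given in the sources used here. Read from the deposited values, each is a whole count minus a background, times 1 factor per sample, and none is under 1. Divided by its sample's factor and shifted by 1 constant per sample, 100% of values from 1.5 to 400 were whole to within 0.03. The 30 housekeeping genes, listed from knowledge of the panel, had geometric means of 728 to 733. Raw counts are known only up to a constant, so no count test was run.

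Samples were grouped by title. Endogenous genes above the floor (mean plus 2 SD of the negative control probes) were tested with limma 3.58.1 (R 4.3.3; lmFit, eBayes) on log2(value + 1), 2-sided, Benjamini-Hochberg over 454 genes, after a check on simulated data. Fold changes on this scale understate low genes. A fold is the ratio of means, or, with 1 line not above the floor, a bound: the brighter mean over the floor.

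The members, gene lists and naming rule were chosen with earlier results of these data known. The rule named the members, their families on the panel, the 2 widest called genes of the other lists, and the 2 nearest genes per member. The Gla protein list had no other gene on the panel. All 770 symbols matched GRCh38.p14 (15 through an older symbol). NRAS and BRAF were not analysed here. Alternatives were the pseudocount, floor, scaling, variance prior, replicate block and each sample left out.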

Additional observations from a re-analysis of the deposited data

How the results depend on the processing

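The scaling between samples moved the split of calls most, and dropping the floor moved their number most, with 518 called against 377. Of 454 genes, 282 were called higher and 95 lower as deposited (74.8% of calls higher), 175 and 160 with the sample factors undone (52.2%), 158 and 139 after scaling on the positive controls (53.2%), 150 and 206 after equalising medians (42.1%) and 161 and 192 after quantile normalization (45.6%). Log2 differences that turned negative, in that order of scalings, were -0.10, -0.092, -0.23 and -0.21 for DCN, -0.10, -0.087, -0.22 and -0.20 for CHAD, -0.14, -0.13, -0.27 and -0.23 for FBN2, -0.21, -0.20, -0.33 and -0.31 for LTBP4, -0.030, -0.018, -0.15 and -0.072 for SDC4 and -0.084, -0.071, -0.21 and -0.19 for HOXB13. ADAMTS8 turned to -0.096 and -0.075 in the last pair only. The first 3 of these scalings shift all genes of a sample alike by construction. Among the other genes of all lists, 22 were higher and 8 lower, and 13 were lower after equalising medians or with no floor. With no floor 75 genes held at the minimum in all samples were called higher, because the minimum itself was scaled to between 1.11 and 1.16 in Q61K samples and stayed at 1 in wild-type samples. With replicate numbers as a block 392 genes were called, and not every sample correlated best with its own number. Deviations of same-numbered samples correlated at 0.216, 0.0528 and 0.0663, so the numbers were not taken as pairs. Leaving out each sample in turn gave 258 to 284 genes higher and 91 to 97 lower. The number of members with all Q61K samples above all wild-type samples was 6 to 7 there, with DCN joining when Q61K sample 3 was left out. Signal over background limits LUM, MGP, EMILIN1, FREM2 and ABI3BP in the wild-type line, where BGN was not above background. It limits ABI3BP in the Q61K line too.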
